A study of Gallus gallus with 9 samples.

Results

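The 3 libraries labelled LIN28A knockout were compared with the 3 control libraries of chicken (Gallus gallus) primordial germ cells, 6 of the 9 libraries of the series, over all genes that could be tested. Primordial germ cells (PGCs) are the embryonic precursors of eggs and sperm. Both groups were chosen by their labels: the control cells were wild type and carried a control vector, and the other cells were Lin28A knockouts. The labels give no sex, age, passage or editing method, and leave unsaid whether the replicates were separate cultures; p-values then reflect the spread among the libraries at hand and nothing wider. The remaining 3 libraries, of Lin28B knockout cells, added to the estimate of the spread and, where replicate number was a block, to the block terms, through which they also bear on the blocked differences. Poly(A) RNA was counted per gene, with 27.8 to 32.2 M counts in each of the 6 libraries. Of 24356 listed genes, 15475 had enough counts to be tested. Levels are in CPM, counts relative to library size after TMM scaling, and 3 counts, the floor used here, stand for 0.0904 to 0.112 CPM depending on the library.

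LIN28A and LIN28B are RNA-binding proteins best known for blocking the maturation of the let-7 family of microRNAs, which hold down genes of growth and of the early embryonic state. In mammals LIN28A is used as a marker of pluripotent cells and is made in primordial germ cells. In mice its loss is known to reduce the germ cell pool. Chicken PGCs can be grown in culture, where they depend on FGF, insulin and activin signals. Genes of FGF signals, of germ cell identity and of the let-7 pathway were therefore described together with those that differed most. The insulin and activin lists are given in brief after the FGF genes.

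Germ cell markers were present in every library. DAZL, a germ cell RNA-binding protein, was at 1804, 1903 and 2102 CPM in control replicates 1, 2 and 3 and at 1341, 1393 and 1506 CPM in the knockout. DDX4, the vasa helicase, lay between 516 and 815 CPM, and NANOG, a pluripotency factor that chicken PGCs keep, between 449 and 673 CPM. Summed markers of 4 other cell types were lower than these. The 7 tested leukocyte markers summed to 38.4 to 38.9 CPM in control and 33.5 to 78.9 CPM in the knockout, 7 endothelial markers to 17.6 to 35.1 and 6.89 to 40.2 CPM, 7 gonadal soma markers to 18.7 to 21.5 and 27.5 to 50.9 CPM, and the only 2 erythroid markers tested to 1.60 to 3.30 and 0.655 to 2.92 CPM. No marker with a symbol was at 0 in all 6 libraries. Genes of epithelial junctions and keratins were not low in sum. The 24 tested summed to 5625, 5685 and 5984 CPM in control and 5833, 5901 and 4734 CPM in the knockout. Fibroblast markers, which were not low in sum either, are given after the collagens.

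LIN28A transcript differed in its loss from one pair of same-numbered libraries to the next. LIN28A (ENSGALG00000036022) was at 160, 144 and 244 CPM in control and at 117, 109.5 and 17.7 CPM in knockout replicates 1, 2 and 3. The knockout libraries thus kept 72.8%, 76.2% and 7.28% of the control library with their number. All 3 lay below all 3 controls, replicates 1 and 2 narrowly and replicate 3 by far. The fitted log2 fold change was −1.17 ± 0.53 (SE, n = 3 a group) and did not pass (edgeR quasi-likelihood test, Benjamini-Hochberg adjusted p = 0.479). The labels do not say which part of the gene was altered, so the amount of transcript does not measure the protein. LIN28B (ENSGALG00000026761) was at 52.3, 45.4 and 61.9 CPM in control and at 40.3, 41.8 and 38.0 CPM in the knockout, lower in each pair by 0.37, 0.12 and 0.70 on the log2 scale in the same order. Its log2 fold change of −0.41 ± 0.14 did not pass either (edgeR adjusted p = 0.327).

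**Figure D1:**
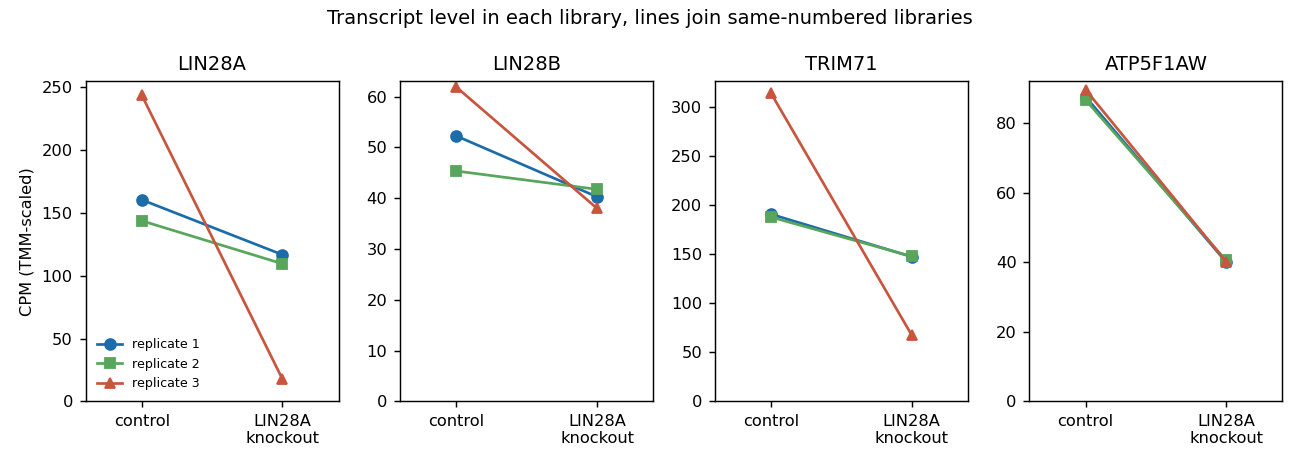
Level of 4 transcripts in each library, in TMM-scaled CPM on linear axes that start at 0; each line joins a control library to the LIN28A knockout library with the same number. LIN28A and TRIM71 drop most from control replicate 3 to knockout replicate 3, while ATP5F1AW drops from 86.7 to 89.6 CPM to 40.0 to 40.5 CPM in all 3 pairs.

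Across genes, pairs 1 and 2 resembled each other and pair 3 resembled neither. A pair difference is the log2 CPM of a knockout library minus that of the control library with its number. It rests on 1 library a side, so it carries no test. For the 10151 genes that averaged 3 or more in log2 CPM, the differences of pairs 1 and 2 correlated at r = 0.831 and had the same sign for 78.8% of genes. Pair 3 correlated with them at r = 0.0641 and 0.0402, with the same sign for 52.6% and 52.2%. These are descriptions across genes, which are not independent. The root mean square difference was 0.325 and 0.346 in pairs 1 and 2 and 0.600 in pair 3. Replicates 1 and 2 lay within 0.141 of each other in control and 0.137 in the knockout, whereas knockout replicate 3 lay 0.725 and 0.713 from its fellow knockouts and control replicate 3 lay 0.365 and 0.384 from the other controls. Replicates 1 and 2 still differed by more than counting noise, with a chi-square per degree of freedom of 5.44 in control and 4.94 in the knockout, and were kept as separate libraries. This cannot tell separate cultures from repeat preparations of the same culture. Fits that hold both replicates, with or without a block, count them as independent.

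Differences of at least 1 on the log2 scale numbered 104 higher and 47 lower in pair 1, which is 1.02% and 0.463% of the 10151 genes. Pair 2 had 108 higher and 58 lower, or 1.06% and 0.571%. In pair 3 there were 324 higher and 492 lower, or 3.19% and 4.85%. Pair 3, in which LIN28A itself was at 7.28% of control, therefore held more large differences, and the larger part of them was downward. Depth was alike in the 6 libraries; whether the loss of LIN28A, the culture or the preparation sets replicate 3 apart cannot be told apart with 1 such knockout library.

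**Figure D2:**
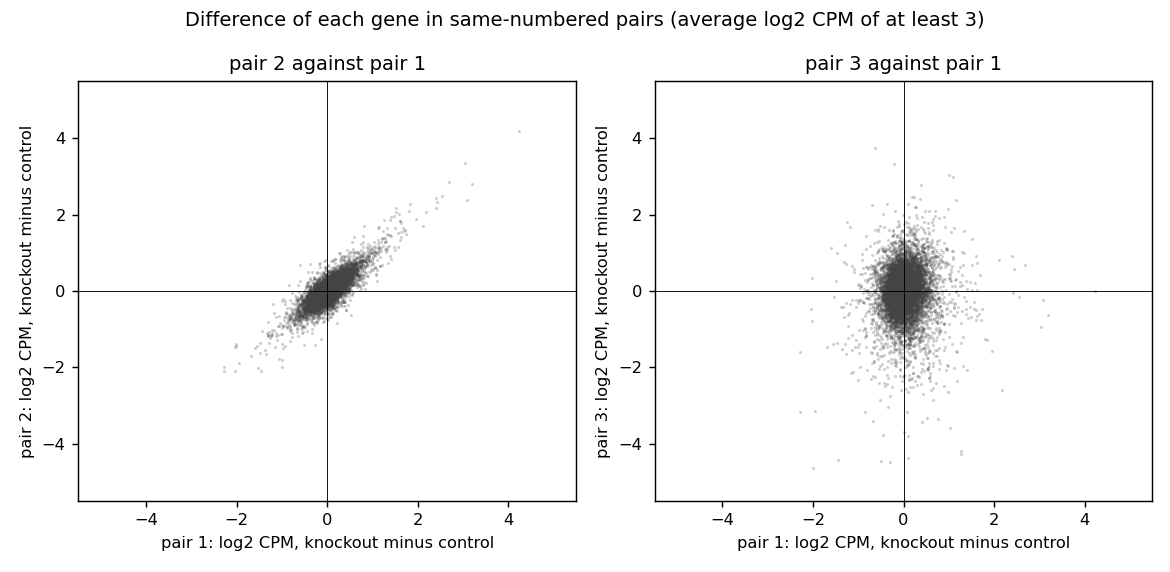
Log2 CPM difference of LIN28A knockout from control in pair 2 (left) and pair 3 (right) against that in pair 1; each point is 1 of the 10151 genes averaging 3 or more in log2 CPM. The left cloud lies along the diagonal (r = 0.831), and the right one spreads along both axes (r = 0.0641).

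Over all 15475 tested genes edgeR called 1 gene lower (0.00646%) and 0 higher (0%) at an adjusted p under 0.05. Without adjustment, p was under 0.05 for 849 genes above control and 794 below it. The call was ATP5F1AW, and on the 6 libraries alone the same fit called 0 genes. With the replicate number as a block of 3 levels, 7 genes were higher (0.0452%) and 6 lower (0.0388%). On the 6 libraries alone that block called 0 genes, also at a threshold of 0.10. These 13 calls thus rest on a fit that holds the LIN28B knockout libraries. A block that only sets replicate 3 apart from replicates 1 and 2, the split the libraries show, gave 137 higher (0.885%) and 128 lower (0.827%). All 137 lay above control in each of the 3 pairs, and all 128 below. All 13 genes of the first block were among these 265. A blocked fit favours genes whose differences are alike across replicates, so the shared sign is no separate evidence. For low genes such as CER1 and HAND1 the sign in pair 3 rested on 3 and 2 control counts against 0. Without knockout replicate 3, edgeR called 300 genes higher (1.90%) and 153 lower (0.967%). Of the 285 higher calls also tested with all libraries, 125 were above control in pair 3. Of the 153 lower calls, all tested with all libraries, 117 were below control in pair 3. DESeq2 on the 6 libraries called 162 higher (1.06%) and 101 lower (0.658%), and the authors' deposited table held 185 higher (1.17%) and 116 lower (0.734%) at the same threshold. Below, "3-level block" and "2-level block" name the blocked fits, and a gene is said to have risen or fallen only where a named fit called it. The fit without a block was the main test. The blocked fits were alternatives, chosen with earlier results of these data known. A rise or fall named from a blocked fit need not have passed the main test. Counts of list members called with the 2-level block are to be read beside its shares over all genes, 0.885% higher and 0.827% lower.

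Some genes differed alike in all 3 pairs. Among the 10151 genes, 81 were higher (0.798%) and 69 lower (0.680%) with no overlap between the groups and at least 0.5 on the log2 scale in every pair. Among the 13 genes of the 3-level block were a W-linked enzyme subunit, collagen and matrix genes, and genes of cell migration and axon guidance. EOMES, NTS, ICA1, MAP7 and GYPC were of none of these kinds. Passing that block favours near-equal pair differences, so the agreement between pairs given for these genes below is no separate evidence. Lower levels in bulk RNA can mean fewer cells that make a transcript or less of it per cell, and the counts do not tell these apart.

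ATP5F1AW (ENSGALG00000043758), the W chromosome copy of the ATP synthase alpha subunit, was at 87.6, 86.7 and 89.6 CPM in control and at 40.0, 40.5 and 40.1 CPM in the knockout. The groups were far apart and each was tight, and LIN28A loss in the same libraries ranged from partial to nearly complete. It fell by 1.13 ± 0.10 on the log2 scale (SE; edgeR adjusted p = 0.0112 without a block, 0.0159 with the 3-level block). Its Z chromosome copy ATP5F1AZ, with which it can share reads, was at 648, 646 and 682 CPM in control and 626, 638 and 523 CPM in the knockout and did not pass (edgeR adjusted p = 0.681). HINTW, the other W-linked gene with a symbol, was at 575, 628 and 586 CPM in control and 366, 377 and 164 CPM in the knockout. HINTW was thus lower in all 3 pairs, most in pair 3, without passing (−0.98 ± 0.26; edgeR adjusted p = 0.218, and 0.0693 with the 2-level block). HINTW belongs to a multicopy family, so its counts are uncertain.

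CXCR4 encodes the receptor for the chemokine that guides PGCs to the gonad. Its level was 40.0, 40.5 and 24.3 CPM in control and 13.7, 14.8 and 9.16 CPM in the knockout. The groups did not overlap, and the pair differences of −1.55, −1.45 and −1.40 were nearly equal although both replicates 3 were low. CXCR4 fell by 1.47 ± 0.12 with the 3-level block (edgeR adjusted p = 0.0159, and 0.126 without a block). Of 25 tested migration and survival receptors 9 lay above control and 16 below, with pair medians of −0.02, 0.04 and −0.20. CXCR4 was the only one of them that either block called. SLIT1, a secreted repellent of migrating axons, fell from 453, 460 and 375 CPM to 187, 178 and 120 CPM (−1.43 ± 0.09 with the 3-level block, edgeR adjusted p = 0.00885, and 0.0687 without a block). RND3, a small GTP-binding protein that loosens actin stress fibres, was at 200, 204 and 216 CPM in control and 122, 135 and 141 CPM in the knockout. It fell by 0.64 ± 0.08 (edgeR adjusted p = 0.0457 with the 3-level block and 0.118 without). The 3 pair differences of RND3 ran only from −0.60 to −0.71.

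EOMES, a T-box factor of mesendoderm, fell from 214, 212 and 154 CPM to 115, 111 and 89.5 CPM, a log2 change of −0.88 ± 0.09 (edgeR adjusted p = 0.0289 with the 3-level block, 0.126 without). NTS, the precursor of the peptide neurotensin, fell from 37.1, 35.7 and 16.8 CPM to 14.5, 11.2 and 5.82 CPM, or −1.51 ± 0.14 (edgeR adjusted p = 0.0244 with the 3-level block, 0.214 without). For both genes replicate 3 was low in the control too, and the difference within each pair was alike.

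SERPINH1, the collagen chaperone HSP47, was at 168, 163 and 217 CPM in control and 293, 288 and 380 CPM in the knockout. Its pair differences of 0.80, 0.82 and 0.81 were nearly identical. SERPINH1 rose by 0.81 ± 0.08 (edgeR adjusted p = 0.0244 with the 3-level block, 0.170 without). COL5A2 rose in the same fit from 60.7, 63.9 and 97.7 CPM to 122, 122 and 160 CPM, and COL14A1 from 12.6, 14.9 and 8.10 CPM to 31.8, 33.2 and 24.3 CPM, by 0.88 ± 0.10 and 1.35 ± 0.13 on the log2 scale (edgeR adjusted p = 0.0388 and 0.0289 with the 3-level block, 0.195 and 0.126 without). COL5A2 is a chain of fibrillar collagen V and COL14A1 a collagen that sits on fibrils. FBN1, which builds microfibrils, rose from 94.4, 97.5 and 79.2 CPM to 178, 173 and 121 CPM, by 0.79 ± 0.09 (edgeR adjusted p = 0.0388 with the 3-level block, 0.152 without).

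The other 3 genes that rose with the 3-level block were ICA1, MAP7 and GYPC. ICA1, a protein of secretory vesicles, was at 42.9, 43.0 and 43.0 CPM in control and 81.5, 81.7 and 69.9 CPM in the knockout (0.85 ± 0.09, edgeR adjusted p = 0.0388, and 0.0655 without a block). MAP7, which binds microtubules, was at 23.6, 24.5 and 14.9 CPM in control and 45.1, 45.6 and 32.0 CPM in the knockout (0.98 ± 0.11, edgeR adjusted p = 0.0453, and 0.230 without a block). GYPC, a membrane glycoprotein known from red cells, had 1 count over the 3 control libraries and 113, 97 and 15 counts in the knockout. The ratio of 225 counts to 1, scaled for depth, was 213 with a 95% interval of 37.8 to 8440 that covers counting error only (exact binomial). GYPC passed the 3-level block (edgeR adjusted p = 0.0388) and not the fit without it (0.126).

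**Figure D3:**
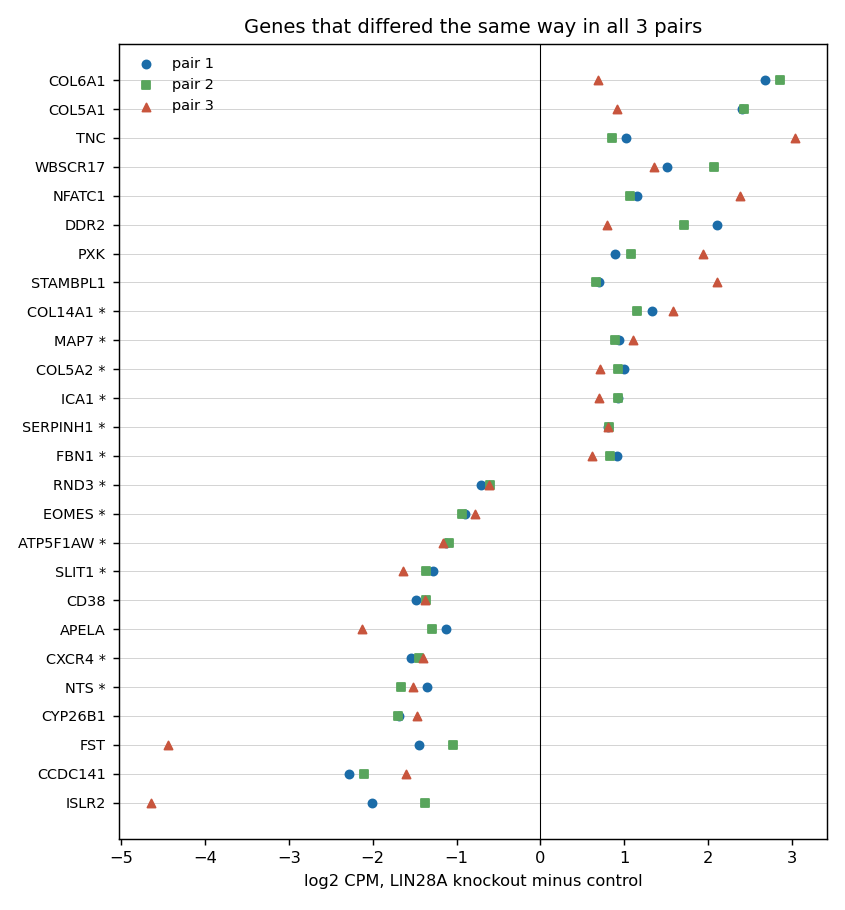
Log2 CPM difference of LIN28A knockout from control in each same-numbered pair, for the 26 genes averaging 3 or more in log2 CPM that passed the 3-level block (12, starred) or had the largest differences of one sign in all pairs; points are single pairs. Starred genes have 3 points close together, which passing the block favours. FST and ISLR2 drop furthest in pair 3, and COL6A1 and COL5A1 rise furthest in pairs 1 and 2.

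The largest differences of one sign did not always agree in size between pairs. CCDC141, a coiled-coil protein, was at 19.0, 18.1 and 20.5 CPM in control and 3.86, 4.17 and 6.72 CPM in the knockout (−1.97 ± 0.25, edgeR adjusted p = 0.0655; it passed the 2-level block, 0.0198). CYP26B1, which breaks down retinoic acid, went from 19.9, 22.3 and 15.8 CPM to 6.12, 6.83 and 5.65 CPM and passed the same block (edgeR adjusted p = 0.0461, and 0.126 without). The groups of both genes stood well apart in all 3 pairs. FST, the secreted inhibitor of activin, was at 24.1, 21.8 and 20.9 CPM in control and 8.83, 10.6 and 0.896 CPM in the knockout. Its pair differences were −1.44, −1.04 and −4.44, and it passed neither block (edgeR adjusted p = 0.190 and 0.0952 with the 3-level and 2-level block). ISLR2, a leucine-rich repeat protein of neurons, followed the same course, with differences of −2.01, −1.38 and −4.65. APELA, a peptide ligand of the apelin receptor, and CD38, an enzyme that consumes NAD, were lower by 1.12 to 2.13 and by 1.37 to 1.48 and both passed the 2-level block (edgeR adjusted p = 0.0253 and 0.0262; 0.126 for each without a block).

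Upward, COL6A1 was at 8.94, 9.08 and 8.40 CPM in control and 57.6, 66.4 and 13.6 CPM in the knockout, so the smallest knockout value was that of replicate 3. It rose in the 2-level block (edgeR adjusted p = 0.0376, and 0.126 without). COL5A1 was at 25.7, 24.7 and 30.0 CPM in control and 137, 133 and 56.4 CPM in the knockout, with the same ordering (2-level block, edgeR adjusted p = 0.0198; 0.0925 without). DDR2, a receptor for fibrillar collagen, rose as well, with pair differences of 2.11, 1.71 and 0.80 (2-level block, edgeR adjusted p = 0.0305; 0.126 without). Other genes differed most in pair 3. TNC, the matrix protein tenascin-C, had differences of 1.02, 0.85 and 3.04 and passed neither block (edgeR adjusted p = 0.0782 with the 2-level block). NFATC1, a calcium-regulated transcription factor, had 1.15, 1.07 and 2.39 and passed the 2-level block (edgeR adjusted p = 0.0498, and 0.126 without). STAMBPL1, a deubiquitinase, and PXK, which carries a PX domain, were likewise further up in pair 3 and passed neither block (edgeR adjusted p = 0.121 and 0.0798 with the 2-level block). WBSCR17, a glycosyltransferase-family gene, had differences of 1.51, 2.07 and 1.3574 (2-level block, edgeR adjusted p = 0.0305, and 0.126 without).

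Collagens as a list split by pair. Of 29 tested collagen genes, 24 lay above control in the fit (82.8%, against 52.7% of all tested genes), with a median log2 fold change of 0.78 against 0.02. The edgeR 2-level block called 6 higher and 0 lower, the 3-level block 2 higher and 0 lower, and the fit without a block 0. The median difference was 0.75 and 0.79 in pairs 1 and 2 and −0.16 in pair 3, and 15 of the 29 were higher in pairs 1 and 2 and lower in pair 3, a course that 17.9% of all tested genes took. COL1A2, a chain of collagen I, showed it most: 221, 210 and 695 CPM in control against 534, 551 and 37.5 CPM in the knockout. Control replicate 3 was here the highest of the 6 libraries and knockout replicate 3 the lowest. COL1A1, the partner chain, was at 109, 102 and 49.6 CPM in control and 590, 516 and 73.3 CPM in the knockout, higher in all 3 pairs, and it rose in the 2-level block (edgeR adjusted p = 0.0498, and 0.268 without). COL12A1 was at 12.2, 10.8 and 12.02 CPM in control and 100.4, 111 and 6.20 CPM in the knockout.

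The sum of the fibroblast markers rested on the 3 collagens among them. The 12 tested markers, which include COL1A1, COL1A2 and COL3A1, summed to 610, 599 and 1010 CPM in control and 1437, 1394 and 481 CPM in the knockout. The list median by pair was 0.20, 0.23 and −0.73. The markers other than collagens were each at 31.1 CPM or less in every library, the highest being THY1, a surface glycoprotein, in knockout replicate 2, and they did not share one course. LUM, the proteoglycan lumican, was at 5.36, 3.23 and 0.187 CPM in control and 0.663, 1.22 and 0.0689 CPM in the knockout, so it was lower in every pair, with knockout replicate 3 under the floor. It fell in the 2-level block (edgeR adjusted p = 0.0434, and 0.605 without), the one lower call of the list, against COL1A1 as the one higher. TWIST1, a mesenchymal transcription factor, was at 0 to 0.743 CPM, with no call (edgeR adjusted p = 0.776 with the 2-level block). It differed by −0.04 and −1.01 in pairs 1 and 2. In pair 3 control and knockout were both under the floor, so no difference could be read there. DCN was at 0.482 to 3.74 CPM and PDGFRA at 0.427 to 1.358 CPM over the 6 libraries. TWIST2 was at 0.530, 0.453 and 0.224 CPM in control and 6.45, 5.55 and 0 CPM in the knockout. The part of such cells in the matrix differences was not tested.

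Enzymes that fold and modify collagen differed more evenly. Of 25 tested, 19 lay above control (76.0%, against 52.7% of all tested genes), with pair medians of 0.15, 0.22 and 0.21. The 2-level block called 6 higher and 0 lower. PLOD1, a lysyl hydroxylase, was at 37.7, 40.5 and 35.9 CPM in control and 77.8, 82.0 and 51.0 CPM in the knockout (2-level block, edgeR adjusted p = 0.0279; 0.194 without). ADAMTS3, a procollagen protease, was at 10.6, 10.9 and 10.4 CPM in control and 17.8, 17.6 and 25.7 CPM in the knockout (edgeR adjusted p = 0.0336 and 0.126). Among 44 microfibril and proteoglycan genes the 2-level block called 3 higher and 3 lower. FN1, fibronectin, rose (110.0, 89.0 and 71.2 CPM to 276, 279 and 113 CPM; edgeR adjusted p = 0.0198), while VCAN, a large proteoglycan, fell (150.3, 139.8 and 223 CPM to 86.4, 89.0 and 52.9 CPM; edgeR adjusted p = 0.0470).

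Many FGF and ERK genes lay above control in pairs 1 and 2 and below it in pair 3. FGF signals pass through receptors to the kinase ERK, which switches on its own inhibitors, the Sprouty (SPRY) proteins, the phosphatases DUSP4, DUSP5 and DUSP6 and the membrane protein IL17RD, whose transcripts are used as readouts of the pathway. Of 33 tested genes of this list, 16 were higher in pairs 1 and 2 and lower in pair 3, against 17.9% of all tested genes, and the list median was 0.40, 0.39 and −0.49. None passed edgeR with either block or without one on all libraries. Without knockout replicate 3, edgeR called 4 higher and 0 lower, against 1.90% and 0.967% of all genes tested in that fit. Without a block or adjustment, p was under 0.05 in edgeR for 3 above and 2 below control, against 849 and 794 of all 15475 tested genes. DESeq2 called 1 higher and 1 lower, against 1.06% and 0.658% of all genes tested in that fit.

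DUSP6 was at 84.7, 82.9 and 121 CPM in control and at 122, 113 and 28.9 CPM in the knockout. IL17RD was at 57.7, 53.8 and 69.1 CPM in control and 84.9, 86.7 and 18.5 CPM in the knockout. SPRY1 was at 18.1, 17.4 and 26.4 CPM in control and 30.3, 29.2 and 8.06 CPM in the knockout. In each case control replicate 3 was the highest control and knockout replicate 3 the lowest of the 6 libraries. The averaged log2 fold changes, −0.12 ± 0.42 for DUSP6 and 0.13 ± 0.40 for SPRY1, show none of this. DUSP4, SPRY2 and ETV1, an ERK-responsive transcription factor, had differences of 0.45 to 1.01 in pairs 1 and 2 and of −1.55 to −1.75 in pair 3. EGR1, an early response gene, was at 2.27, 3.07 and 1.75 CPM in control and 21.3, 22.0 and 1.10 CPM in the knockout. FGF8, a ligand, was at 1.43, 1.52 and 0.821 CPM in control and 14.7, 16.5 and 1.52 CPM in the knockout and above control in every pair. DESeq2 called FGF8 higher (adjusted p = 0.00174, and 0.0813 in edgeR with the 2-level block). MYC, a growth-promoting transcription factor on the same list, was the other member above control throughout, at 2.27, 2.17 and 1.98 CPM in control and 5.36, 4.94 and 2.07 CPM in the knockout. Another 6 members lay below control in every pair. Among them the receptor FGFR3 was at 44.2, 40.7 and 37.7 CPM in control and 24.2, 23.0 and 30.3 CPM in the knockout, the one lower call of the list in DESeq2 (adjusted p = 0.0247; 0.143 in edgeR with the 2-level block), and the ligand FGF9 was at 0.522 to 0.711 CPM in control and 0.181 to 0.276 CPM in the knockout. The receptor FGFR1 stayed between 162 and 304 CPM, lowest in knockout replicate 3. Of 30 tested insulin, IGF and mTOR genes 19 lay above control (63.3%), with pair medians of −0.02, 0.06 and 0.06. The 2-level block called only IGFBP2, lower (edgeR adjusted p = 0.0279, and 0.611 without a block). IGFBP2 was at 88.6, 90.2 and 40.7 CPM in control and 59.6, 56.7 and 25.7 CPM in the knockout. Of 49 activin, nodal, BMP and TGF-beta genes 29 lay above control (59.2%), with medians of 0.04, 0.11 and −0.04. The same block called only ID2, lower.

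**Figure D4:**
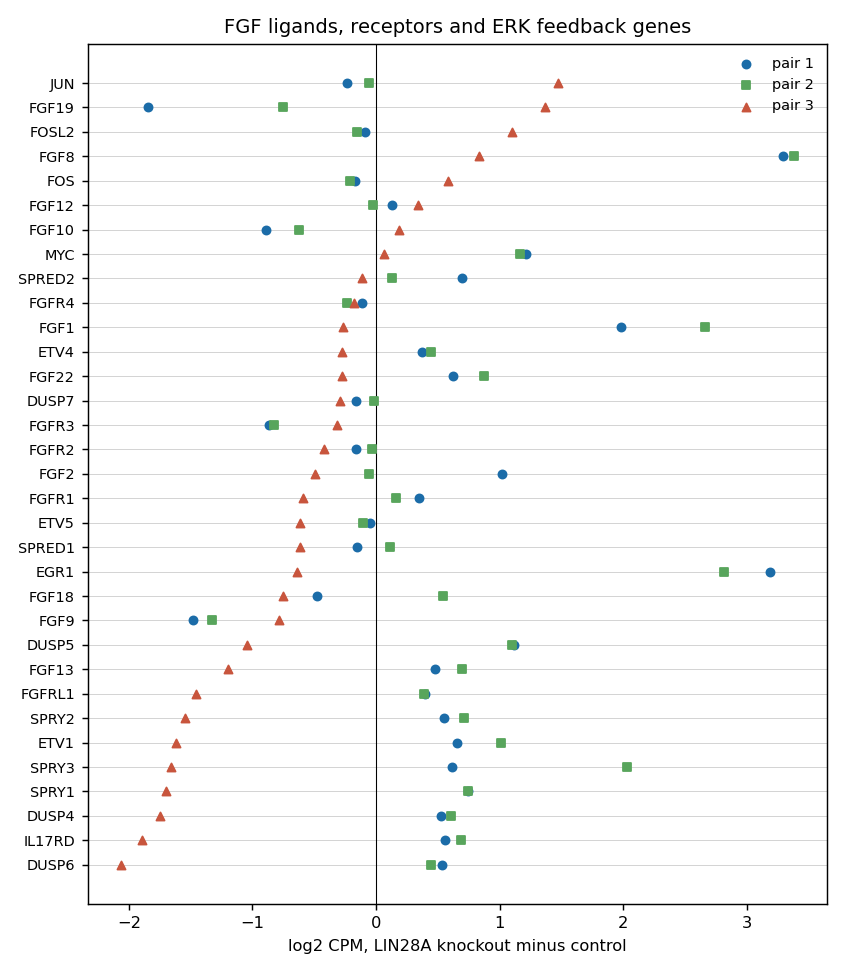
Log2 CPM difference of LIN28A knockout from control in each pair for all 33 tested FGF ligands, receptors and ERK feedback genes, ordered by pair 3; points are single pairs without replicate error. Pairs 1 and 2 lie together and above 0 for the SPRY and DUSP genes at the foot of the plot, where pair 3 lies between −1.04 and −2.06.

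Transcripts of LIN28 and let-7 processing genes were lower mainly in pair 3. Of 13 tested, 10 lay below control in the fit (23.1% above, against 52.7% of all tested genes). The pair medians were −0.16, −0.12 and −0.70, and edgeR called none with either block or without one. In every pair 7 of the 13 (53.8%) were lower, against 19.3% of all tested genes. The list joins the let-7 blockers LIN28A and LIN28B with genes that make microRNAs, and let-7 itself was not measured. LIN28A, the targeted gene, is also on the let-7 target and pluripotency lists. TRIM71, itself a let-7 target and an RNA-binding protein of stem cells, was at 191, 188 and 314 CPM in control and 147, 148 and 67.8 CPM in the knockout (−0.93 ± 0.31, edgeR adjusted p = 0.330). Its pair differences of −0.37, −0.35 and −2.21 had the same order as those of LIN28A. XPO5, which exports microRNA precursors, was lower by 0.16, 0.19 and 0.85. DICER1, which cuts them, was at 82.0, 72.0 and 183 CPM in control and 71.4, 74.4 and 91.6 CPM in the knockout, so its lower value in pair 3 came with a high control.

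Among 51 let-7 targets 22 lay above and 29 below control, a median log2 fold change of −0.05 against 0.02 for all genes. The pair medians were −0.03, 0.03 and −0.29. With the 2-level block 3 were higher (COL5A2, COL1A1 and FAS) and 2 lower (PRTG and RRM2). PRTG, an adhesion protein of early embryonic tissue, fell from 141, 136 and 163 CPM to 78.6, 81.2 and 70.1 CPM (2-level block, edgeR adjusted p = 0.0461; 0.171 without). RRM2, a subunit of the enzyme that makes deoxynucleotides, fell from 144, 149 and 159.6 CPM to 101.2, 102 and 97.8 CPM (edgeR adjusted p = 0.0305 and 0.152). HMGA2, a chromatin protein and the classic let-7 target in mammals, was low, at 4.49, 4.23 and 7.39 CPM in control and 5.45, 4.997 and 1.964 CPM in the knockout.

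Pluripotency genes were lower mainly in pair 3 as well, though 10 of the 21 tested (47.6%) were lower in every pair, against 19.3% of all tested genes. The 21 tested had pair medians of −0.09, −0.04 and −1.02, the lowest median of pair 3 among the 41 lists with at least 7 tested members, and 17 were lower in pair 3. SALL4, a zinc-finger factor, was at 493, 474 and 613 CPM in control and 436, 461 and 251 CPM in the knockout. FOXD3 was at 16.2, 13.9 and 36.3 CPM in control and 17.4, 15.7 and 1.69 CPM in the knockout, unlike in pair 3 only. ZIC2 was lower in all pairs, from 82.0, 80.7 and 133 CPM to 56.3, 51.0 and 54.6 CPM, and fell in the 2-level block (edgeR adjusted p = 0.0447, and 0.207 without). The 2-level block called 1 member of the list lower and 1 higher. SOX2 was lower in every pair, from 4.77, 3.72 and 12.65 CPM to 1.60, 1.31 and 1.69 CPM. DESeq2 called SOX2 lower (adjusted p = 0.00269, and 0.0701 in edgeR with the 2-level block). NANOG differed little in any pair (−0.14, −0.13 and −0.30).

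Germ cell genes did not share the drop of the pluripotency list. Of 21 tested, 12 were above and 9 below control, with pair medians of −0.09, −0.13 and 0.43. The 2-level block called DAZL and CXCR4 lower and PRDM14 and SOX17 higher. DAZL, at the values given above, was lower by 0.43, 0.45 and 0.48 in pairs 1 to 3 (edgeR adjusted p = 0.0239 with the 2-level block and 0.161 without). PRDM14, a repressor that sets up the germ cell state, was at 116, 118 and 119 CPM in control and 162, 151 and 161 CPM in the knockout (edgeR adjusted p = 0.0305 and 0.151). SOX17, the germ cell specifier of human PGCs, was low in control at 0.779, 1.03 and 0.298 CPM and at 4.85, 3.14 and 4.96 CPM in the knockout (edgeR adjusted p = 0.0397 and 0.126). The survival receptor KIT and the RNA-binding protein DND1 differed by at most 0.19 in any pair. DDX4 went opposite ways, by 0.36, 0.45 and −0.30.

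Most meiosis genes lay above control in pair 3. Of 12 tested, 9 did, against 5 in each of the other pairs, with pair medians of −0.11, −0.04 and 0.67, and edgeR called none with either block or without one. SMC1B, a meiotic cohesin, was at 20.8, 20.1 and 15.3 CPM in control and 14.1, 15.9 and 47.5 CPM in the knockout. SYCP3, of the synaptonemal complex, was at 7.51, 10.2 and 8.02 CPM in control and 6.42, 6.43 and 18.1 CPM in the knockout, so knockout replicate 3 alone was high for both. YTHDC2, an RNA helicase needed for meiosis in mice, was at 137, 134 and 154 CPM in control and 159.7, 172 and 179.7 CPM in the knockout, above control in every pair, while MSH4, of meiotic crossing over, was lower in every pair, by 0.25, 0.46 and 0.82.

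Respiratory chain genes were lower by a small amount in nearly all members. Of 17 ATP synthase genes 16 were lower in all 3 pairs, against 19.3% of all tested genes, with pair medians of −0.26, −0.34 and −0.32. The 2-level block called ATP5F1AW, ATP5G1 and ATP5H lower. ATP5G1, a chain of the membrane ring, was at 106, 114 and 94.4 CPM in control and 82.8, 77.1 and 62.1 CPM in the knockout (edgeR adjusted p = 0.0278 with the 2-level block, 0.220 without). Complex I behaved otherwise: 33 of 34 genes lay below control in the fit, but only 20 were lower in pair 3, with medians of −0.20, −0.32 and −0.04. Of 19 genes of complexes II to IV 14 were lower in every pair, and COX7B and UQCRQ fell in the 2-level block (edgeR adjusted p = 0.0461 and 0.0345; 0.214 and 0.338 without).

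Ribosomal protein genes reversed between pairs. Of 63 tested, 56 were lower in pair 1, 60 in pair 2 and 11 in pair 3, with medians of −0.12, −0.23 and 0.13. The course lower in pairs 1 and 2 and higher in pair 3 was taken by 46 of them, against 17.5% of all tested genes. RPL38 was the member called by the 2-level block, lower in all pairs (edgeR adjusted p = 0.0312, and 0.214 without). The 68 mitochondrial ribosome genes had medians of −0.13, −0.23 and 0.03.

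The list medians of cell division genes were slightly below 0 in all 3 pairs. Of 39 S phase genes 21 (53.8%) were lower in every pair, with medians of −0.15, −0.15 and −0.18, and of 33 G2 and mitosis genes likewise 21 (63.6%), with −0.17, −0.17 and −0.26. Among all tested genes 19.3% were lower in every pair. RRM1, RRM2 and the replication helicase subunit MCM5 fell in the 2-level block. MCM5 was at 257, 254 and 262 CPM in control and 189, 186 and 222 CPM in the knockout (edgeR adjusted p = 0.0495, and 0.291 without). Of 35 genes of p53 targets and apoptosis, 21 lay above control (60.0%, near the 52.7% of all tested genes). The 2-level block called 3 higher and 0 lower, where it called 0.885% of all tested genes higher. CDKN1A, the p21 inhibitor of the cell cycle, rose from 2.18, 1.58 and 4.48 CPM to 11.8, 10.6 and 10.99 CPM (edgeR adjusted p = 0.0278, and 0.126 without). FAS and TNFRSF10B, both death receptors, rose too (edgeR adjusted p = 0.0459 and 0.0498, and 0.126 and 0.214 without).

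Guidance molecules, both ligands and receptors, differed in both directions. The 2-level block called SLIT1, its receptor ROBO2 and the semaphorin SEMA3A lower, and the receptors NRP2 and PLXNA2 and the semaphorin SEMA3B higher, out of 52 tested. Of all tested genes it called 0.827% lower and 0.885% higher. ROBO2 was at 30.7, 33.5 and 38.7 CPM in control and 20.3, 18.0 and 20.7 CPM in the knockout (edgeR adjusted p = 0.0198, and 0.126 without). NRP2 was at 49.6, 49.2 and 51.9 CPM in control and 84.9, 85.7 and 131 CPM in the knockout (edgeR adjusted p = 0.0407 and 0.126). NTN1, the netrin ligand, went opposite ways, from 8.57, 7.98 and 10.1 CPM to 39.0, 33.5 and 1.62 CPM. Of the cadherins, CDH2 fell from 265, 256 and 470.3 CPM to 146, 152 and 234 CPM, and CDH1 rose from 49.3, 48.1 and 28.4 CPM to 75.4, 75.0 and 63.3 CPM (2-level block, edgeR adjusted p = 0.0158 and 0.0498; 0.405 and 0.412 without).

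Some somatic fate genes were at 0 in the knockout. Of 34 mesoderm and endoderm genes 20 lay below control and 14 above (41.2% above, against 52.7% of all tested genes). In pair 3 the list was split, with 17 below and 15 above. The 2-level block called 4 lower, EOMES, CER1 and HAND1 among them, and 1, SOX17, higher. CER1, a secreted inhibitor of nodal, had 73, 54 and 3 counts in control and 0 in every knockout library. Against a floor of 3 counts over the knockout group CER1 was at least 45.8-fold lower. HAND1, a factor of lateral mesoderm, had 70, 29 and 2 counts in control and 0 in the knockout, at least 35.6-fold lower on the same floor. In pair 3 both controls were at or under 3 counts, so no difference could be read there. CER1 and HAND1 passed the 2-level block (edgeR adjusted p = 0.0425 and 0.0298) and not the fit without it (0.154 and 0.220).

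Some genes differed only in part of the pairs, and these are descriptions without a test. Higher by at least 1 in pairs 1 and 2 and within 0.25 of control in pair 3 were 17 genes (0.167%), and 2 were lower (0.0197%). ANGPT2, a secreted ligand of the vascular TIE2 receptor, led them, with 3.37, 3.91 and 2.43 CPM in control and 64.4, 72.0 and 2.41 CPM in the knockout. MMP2, a matrix protease, PIEZO2, a stretch-gated channel, COL6A2, OLFML2B and MFSD4A were alike in this, and LRFN2, a synaptic adhesion protein, was the lower one with a symbol.

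In pair 3 alone, with pairs 1 and 2 within 0.25 of control, 112 genes were higher (1.10%) and 154 lower (1.52%). ALDH1A2, which makes retinoic acid, was at 41.2, 39.4 and 33.2 CPM in control and 35.5, 36.4 and 334 CPM in the knockout. Knockout replicate 3 was thus the only library in which ALDH1A2 departed, by 3.33 on the log2 scale. TECPR1, IGSF21, GLIS1, MYH7 and ZDHHC12 followed upward with differences of 1.95 to 2.29 in pair 3. Downward, after FOXD3, came NELL1, PCDH8, THY1, GABBR2 and DMRT3 with −2.25 to −3.79. PCDH8, a protocadherin, was at 22.5, 21.5 and 31.5 CPM in control and 23.2, 24.6 and 5.24 CPM in the knockout.

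Opposite differences of at least 0.5, up in pairs 1 and 2 and down in pair 3, were found for 115 genes (1.13%), and the reverse for 35 (0.345%). Beside NTN1, the chemokine CXCL14 was at 28.8, 29.8 and 8.92 CPM in control and 113, 109.5 and 2.96 CPM in the knockout. PLPP1, a lipid phosphatase, and GREB1L were the next of these. The Notch ligand JAG2 took the reverse course, at 19.97, 19.6 and 12.3 CPM in control and 8.35, 8.62 and 43.4 CPM in the knockout, as did KYNU, RASSF9 and RGS4.

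**Figure D5:**
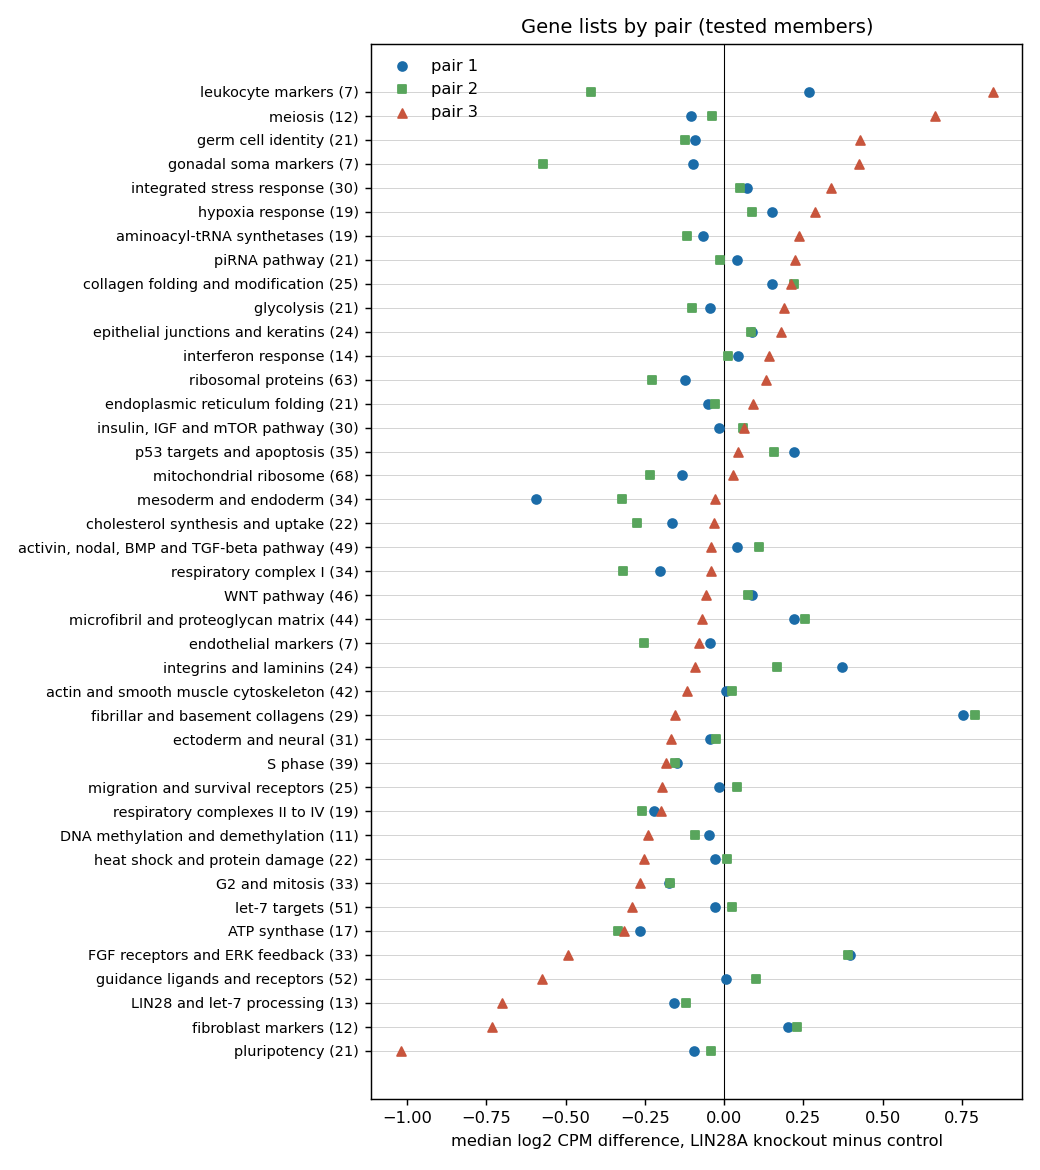
Median log2 CPM difference of LIN28A knockout from control in each pair, over the tested members (number in brackets) of the 41 gene lists with at least 7 of them, ordered by pair 3; no error is drawn since each pair is 1 library a side. ATP synthase and S phase genes have 3 points on one side of 0, while collagens, FGF genes and ribosomal proteins have pair 3 on the other side from pairs 1 and 2.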

How the data were processed

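The authors' deposited counts are whole-number counts per Ensembl gene, in a table for each library. The tools listed in the submitters' processing notes, without roles, are edgeR 3.38.4, DESeq2 1.36.0, featureCounts 2.0.3 and HISAT2 2.1.0, and the listed genome builds are galGal6 and GRCg6a. The log2 fold changes, with their standard errors, and the p-values of the authors' deposited table come from DESeq2, per the file headers, and symbols were taken from it. Whether counting used strand is not given in the sources used here. Overlapping genes and close copies can share reads. Of the tested genes 12271 had a usable symbol; symbols turned into dates were not used. No coordinates or sequences are printed.

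The test was run in R 4.3.3 with edgeR 4.0.16 (filterByExpr, then TMM scaling, quasi-likelihood F test of all 9 libraries on group, Benjamini-Hochberg adjusted p under 0.05), checked on simulated counts. Standard errors come from the F statistic. Pair differences use log2 CPM with a prior count of 2. The common biological coefficient of variation was 0.265. Floors and intervals cover counting error only.

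Same-numbered control and knockout libraries deviated together from their group means (correlation 0.403, 0.258 and 0.391 for numbers 1, 2 and 3 over 10151 genes), so same-numbered libraries were treated as pairs. Blocked values stand beside the others for most genes. A gene called with a block and given with the blocked value only did not pass without a block. Control 1 with knockout 2 and control 2 with knockout 1 reached 0.334 and 0.317, so the check sets only replicate 3 apart, which the block of 2 levels does. It tests with fewer block terms than the 3-level one.

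The members, lists, blocks and the rule for naming genes were chosen with earlier results of these data known. The rule named LIN28A and LIN28B; genes called without a block or with the 3-level block; the 8 largest differences each way of one sign in all pairs; up to 6 each way particular to pairs 1 and 2 or to pair 3, and 4 each way of opposite sign; and up to 4 members of each list. Other genes were named after their values were seen. Alternatives were median-of-ratios scaling, no filter and a stricter filter on low counts, 6 libraries only, the blocks, replicates 1 and 2 only, leaving out each library, DESeq2 1.42.0, and a threshold of 0.10. Of 44 lists, 1, of mitochondrially encoded genes, had no symbol in the table. Not every gene that the rule named, and not every called list member, is given in the text.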

Additional observations from a re-analysis of the deposited data

How the results depend on the processing

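The 1 gene called with all libraries and no block was also the count under median-of-ratios scaling and the stricter filter on low counts. It was 5 with no filter, 0 with 6 libraries only, 13 with the replicate block of 3 levels, 0 with that block and 6 libraries only, 265 with the replicate block of 2 levels, 263 in DESeq2, 4724 with replicates 1 and 2 only and 7 at a threshold of 0.10. Leaving out each library in turn gave 0 to 453 calls, the highest without LIN28A knockout replicate 3. At an unadjusted p under 0.05 the settings with 0 calls held 1078 to 1786 genes. The LIN28A log2 fold change was −1.23 with either replicate block on all libraries and −1.42 with the 3-level block on 6 libraries, and it passed in 1 fit, with replicates 1 and 2 only, at −0.43 (edgeR adjusted p = 1.76e-06); leaving out a library gave −1.52 to −0.69. Median-of-ratios scaling moved none of the 15475 tested genes by more than 0.006 and turned no named gene.

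The 171 other named genes counted here leave out those named for differences in part of the pairs or of opposite sign. Of the 171, 9 changed sign in at least 1 alternative, and the cause was not tested. Leaving out each library in turn, the log2 fold change ran from −0.325 to 0.638 for IGF1R, −0.11 to 1.31 for ATF3, −0.007 to 0.591 for CARS, −0.054 to 0.583 for IARS, −1.21 to 0.042 for ITGB3, −1.95 to 0.43 for TAL1, −0.87 to 0.38 for CD3E, −1.29 to 0.70 for TEK and −0.309 to 0.007 for DNMT3A. With replicates 1 and 2 only TAL1 was 0.51 and TEK −0.87, and TEK was −0.016 with the replicate block of 2 levels. Several of the genes left out of the 171 changed sign too. JAG2 was 0.21 without a block and −0.07 with either block. ALDH1A2 was 1.83 with all libraries and −0.08 without knockout replicate 3. FOXD3 was −0.93 with all libraries and 0.13 with replicates 1 and 2 only. Of 774 list medians under alternatives 54 moved by more than the spread between pairs, and 0 of 81 pair differences moved under the other scaling beyond counting error. With 3 libraries a group, and 1 knockout library that lost most of its LIN28A transcript, what goes with that loss cannot be tested.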

Other observations

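Several stress and hypoxia genes were highest in knockout replicate 3. Of 30 tested genes of the integrated stress response 26 lay above control (86.7%, against 52.7% of all tested genes). The pair medians were 0.07, 0.05 and 0.34. The edgeR fit with a block that sets replicate 3 apart called VLDLR and CTH higher, and 0.885% of all tested genes. ATF3, a stress transcription factor, was at 20.7, 24.5 and 29.2 CPM in control and 20.9, 25.1 and 98.1 CPM in the knockout. SESN2, a brake on growth signals under nutrient stress, was at 45.9, 48.0 and 41.1 CPM in control and 54.4, 52.3 and 126 CPM in the knockout. Of 19 tested hypoxia genes 14 lay above control (73.7%). Their pair medians were 0.15, 0.09 and 0.29, and 7 were below control in pair 3. P4HA2, the 1 member called with that block, was least raised in knockout replicate 3. It was at 20.5, 21.1 and 24.3 CPM in control and 45.1, 46.0 and 29.6 CPM in the knockout (edgeR adjusted p = 0.0465, and 0.126 without a block). LDHA, the enzyme that makes lactate, was at 1364, 1619 and 1527 CPM in control and 1657, 1722 and 4537 CPM in the knockout, and NDRG1, a hypoxia-induced gene, differed by 0.14, 0.22 and 1.57 on the log2 scale. ATF3, SESN2, LDHA and NDRG1 passed edgeR neither without a block nor with either block, and no fit can test knockout replicate 3 alone.

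The ID genes, targets of BMP signals that block helix-loop-helix factors, did not move together. ID2 was lower in all 3 pairs, at 32.8, 32.7 and 35.3 CPM in control and 16.2, 16.6 and 6.99 CPM in the knockout (edgeR adjusted p = 0.0432 with that block and 0.154 without). ID1 was at 50.8, 44.3 and 27.4 CPM in control and 40.0, 34.0 and 3.27 CPM in the knockout. ID4 was higher by 0.98 and 0.99 in pairs 1 and 2 and fell short of control in pair 3, at −2.64. VIM, an intermediate filament protein, was at 769, 766 and 1082 CPM in control and 539.6, 531 and 329 CPM in the knockout, lower in every pair. It did not pass edgeR (adjusted p = 0.214, and 0.106 with the block), while DESeq2 called it lower (adjusted p = 0.0311).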
